A study of Homo sapiens with 2 samples.

Results

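The genes described here are 7 transcripts of the late, mitochondrial arm of apoptosis: APAF1 and CYCS, whose proteins build the apoptosome, DIABLO and AIFM1, whose proteins leave the mitochondrion beside cytochrome c, and DFFA, CIDEA and CIDEB, which belong to the DNA fragmentation factor family. They were taken by plate position from a quantitative PCR panel of 84 target wells, at A04 (APAF1), D11 (CYCS), E02 (DIABLO), A02 (AIFM1), E01 (DFFA), D08 (CIDEA) and D09 (CIDEB), so 7 of 84. The deposited tables name wells only by position. Gene names follow the catalogue layout of the human apoptosis array PAHS-012Z, in which the 84 targets run alphabetically from A01 to G12. That layout was not checked against the maker's gene table, which was not used here, and every gene name below rests on it. The position of the 5 reference genes (H01 ACTB, H02 B2M, H03 GAPDH, H04 HPRT1 and H05 RPLP0) rests on the same layout.

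The material was 2 samples of LNCaP, an established line of human prostate adenocarcinoma that depends on androgen signalling and keeps a working p53. The Control group was 1 sample given no agent, and the C-PC group was 1 sample exposed to C-PC, the cyanobacterial pigment protein C-phycocyanin, at 500 µg/mL. All incubations lasted 24 h. The labels call the cells epithelial, and by the layout the panel holds no transcript that defines prostate epithelium, so that label could not be checked. The panel does hold 8 genes typical of lymphocytes (CD27, CD40LG, CD70, FASLG, IL10, LTA, TNFSF8 and TNFRSF9), and their threshold cycles lay between 33.0 and 37.4 in the Control and between 32.4 and 38.3 in C-PC. LTA alone was under the detection limit of 35 in both samples. CD27 and TNFRSF9 were under it in the Control only. Relative to the reference wells, CD27 was at least 1.49-fold and TNFRSF9 at least 2.36-fold lower in C-PC. CD70 and TNFSF8 were under it in C-PC only, where CD70 was at least 10.1-fold and TNFSF8 at least 3.79-fold higher by the same measure. What part this had in the results below was not tested.

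In the intrinsic pathway, pores of BAX and BAK1 in the outer mitochondrial membrane let proteins of the intermembrane space into the cytosol. Cytochrome c (CYCS) then binds APAF1, which assembles into a wheel that activates caspase 9, which starts the caspase cascade. DIABLO, also called SMAC, binds the inhibitor of apoptosis proteins and frees caspases from them, while AIFM1, a flavoprotein, can move to the nucleus and promote chromatin damage without caspases. DFFA, also called ICAD, holds the nuclease DFFB inactive until caspase cleavage. CIDEA and CIDEB share a domain with DFFA and are best known for handling lipid, CIDEA at lipid droplets of fat cells and CIDEB in lipoprotein assembly in liver. Release of these proteins and cleavage of DFFA are changes of protein location and form, which a transcript measurement does not show.

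CYCS and APAF1, which make 1 complex, differed by 0.99 in log2 fold (C-PC over Control), and AIFM1 and DFFA had nearly equal folds. Promoter sequences of these 4 genes are shown because their transcripts give these contrasts, which are reported below. Each is the stretch of 250 bases before the start of the gene in RefSeq (build GRCh38.p14), written 5′ to 3′ along the gene. CYCS lies at chr7:25125261-25125510 on the minus strand, APAF1 at chr12:98645040-98645289 on the plus strand, AIFM1 at chrX:130165842-130166091 on the minus strand and DFFA at chr1:10472530-10472779 on the minus strand. Capitals mark the letters GCGCATGC on either strand, the core of the site of nuclear respiratory factor 1 (NRF1), a regulator of nuclear genes for mitochondrial proteins, and the letters CACGTG, the E-box read by MYC and USF proteins.
CYCS: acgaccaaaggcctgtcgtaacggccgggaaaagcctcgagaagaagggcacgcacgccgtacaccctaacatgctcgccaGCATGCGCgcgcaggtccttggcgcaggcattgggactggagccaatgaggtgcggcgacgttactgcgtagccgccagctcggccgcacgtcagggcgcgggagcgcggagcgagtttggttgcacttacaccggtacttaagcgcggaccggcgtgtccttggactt
APAF1: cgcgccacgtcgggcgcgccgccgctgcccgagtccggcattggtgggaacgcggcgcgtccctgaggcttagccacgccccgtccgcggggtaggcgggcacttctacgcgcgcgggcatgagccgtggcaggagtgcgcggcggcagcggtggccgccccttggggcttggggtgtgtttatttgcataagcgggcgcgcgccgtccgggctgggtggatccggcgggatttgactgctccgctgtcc
AIFM1: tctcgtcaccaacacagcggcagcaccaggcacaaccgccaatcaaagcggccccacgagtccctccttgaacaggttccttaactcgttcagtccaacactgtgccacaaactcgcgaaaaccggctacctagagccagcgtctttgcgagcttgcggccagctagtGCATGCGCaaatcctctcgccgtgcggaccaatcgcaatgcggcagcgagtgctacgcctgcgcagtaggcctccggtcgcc
DFFA: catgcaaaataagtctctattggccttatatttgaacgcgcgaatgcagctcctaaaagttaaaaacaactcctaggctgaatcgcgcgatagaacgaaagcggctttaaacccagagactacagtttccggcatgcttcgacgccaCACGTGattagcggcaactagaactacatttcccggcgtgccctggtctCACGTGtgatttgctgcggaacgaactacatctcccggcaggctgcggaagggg

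The NRF1 letters occurred once before CYCS and once before AIFM1, starting 169 and 82 bases before the respective gene start, and no NRF1 match was found in the windows of APAF1, DFFA, DIABLO, CIDEA or CIDEB. Of all 35116 promoter windows of that length in the table, 2.63% held these letters. The E-box letters occurred 2 times before DFFA and in no window of the other members, and 6.34% of all windows held them. These letters do not overlap each other in the 4 stretches. In all, 6 motifs were searched. CCAAT was found in windows of 6 of the 7 genes, beside 32% of all windows, and the GC box letters GGGCGG in windows of 4 of 7, beside 42.6%. These counts and shares are unlike, because a gene counted if any of its starts matched, while the share is per window. DIABLO had CCAAT only at its starts 2 and 3, and CIDEB only at its start 2. The TATA box letters TATAAA and the cyclic AMP element TGACGTCA were found in none (0 of 7), beside 10.7% and 1.65%. CYCS, 1 of the 2 genes with the NRF1 letters, stood 0.61 above the other, AIFM1, on the log2 scale. Any link between the letters and the folds was not tested. All 7 members matched a promoter by symbol, with 4 starts listed for DIABLO and 2 for CIDEB. A match is a description of the sequence and not a measured binding site.

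The threshold cycle (Ct) is the PCR cycle at which a well's fluorescence crosses a set level, and a Ct later by 1 means 2-fold less template at full efficiency. A single Ct is deposited for each well in each sample. The runs, stated as triplicates in the design text, were taken as repeats of the same sample. There is therefore no replicate check on any difference, no p-value, and no measurement error for a single well. Each log2 fold, C-PC over Control, was taken against the mean Ct of the 5 reference wells. All 5 crossed later in C-PC, by 0.57 cycles (ACTB), 0.75 (B2M), 1.03 (GAPDH), 1.21 (HPRT1) and 0.21 (RPLP0). The mean shift was 0.76 ± 0.39 cycles (SD over 5 reference wells), and this SD is the ± given with the folds below. It describes how far the choice of reference moves a fold and holds no error between cultures. The median detected target well shifted by only 0.24 cycles, so a gene that moved with the bulk of the plate has a log2 fold of 0.51, not 0.

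Of the 6 genes detected in both samples, 0 reached a 2-fold difference between C-PC and Control relative to the reference wells. CIDEA, not detected in C-PC, has only a bound and may be past 2-fold. Across the panel, 16 of the 72 targets detected in both samples (22.2%) were past 2-fold, 15 of them higher (20.8%) and 1 lower (1.39%). A count of 0 of 6 beside that share does not set the 6 genes apart. The log2 folds of the 6 ran from -0.21 for APAF1 to 0.82 for CIDEB, with a median of 0.33, beside 0.51 for all 72 detected wells. Of the 6, 5 lay above 0 relative to the reference wells, beside 58 of the 72 wells. Relative to the plate median, 2 lay above 0 (CYCS and CIDEB) and 4 below, with a median of -0.18. By definition of that median, 36 of the 72 wells lay above it and 36 below. At a 1.5-fold threshold CYCS and CIDEB counted as higher, 2 of 6, beside 45.8% of the 72 wells. The SD of the 6 log2 folds was 0.40, beside 1.10 for the 72 wells, which include BIRC5 at -6.29. The quartiles lay nearer each other, at 0.17 and 0.70 for the 6 and 0.22 and 0.87 for the 72 wells. Between the lowest and the highest of the 6 fell 41 of the 72 wells (56.9%).

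**Figure D1:**
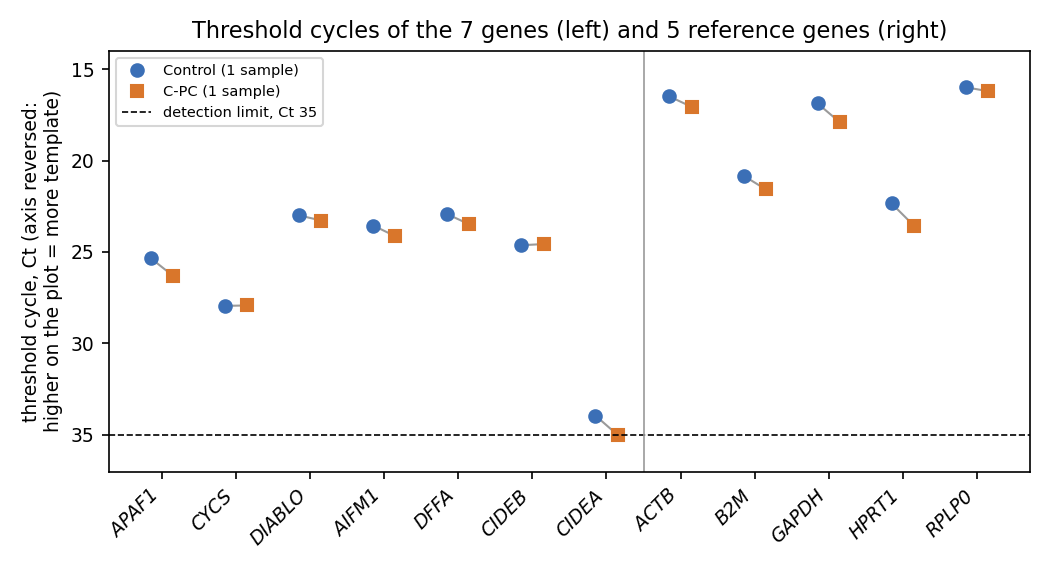
Threshold cycle (Ct, axis reversed) of the 7 genes and the 5 reference genes in the Control sample (circles) and the C-PC sample (squares), 1 value per sample, with a dashed line at the detection limit of 35. All 5 reference genes and 5 of the 7 genes crossed later in C-PC, CYCS and CIDEB crossed at nearly the same cycle in both, and CIDEA stood at 33.9 in the Control and at 35 in C-PC.

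The apoptosome subunits gave the lowest and the second highest fold among the 6. APAF1, the scaffold that binds cytochrome c and recruits caspase 9, crossed the threshold at cycle 25.4 in the Control and at 26.3 in C-PC. Its level, as a percent of the level that the mean reference Ct implies (the reference level), was 0.873% in the Control and 0.755% in C-PC. The log2 fold was -0.21 ± 0.39, a level 1.16-fold lower in C-PC. It was smaller in size than the SD of the reference shifts, which is not an error of the well. APAF1 held rank 62 from the highest of the 72 wells. Its direction depended on the reference, with log2 folds from -0.75 against RPLP0 alone to 0.25 against HPRT1 alone, below 0 with 3 of the 5 reference genes and above 0 with 2. It was 1.65-fold lower relative to the plate median.

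CYCS, the electron carrier cytochrome c, had a Ct of 27.9 in both samples, later in the Control by 0.023 cycles. Its level was 0.144% of the reference level in the Control and 0.248% in C-PC. The log2 fold was 0.78 ± 0.39, a level 1.71-fold higher in C-PC, at rank 25 of the 72 wells. This fold lay above 0 with each of the 5 reference genes, between 0.24 and 1.23. So did the fold of every well down to rank 34. It was 1.20-fold higher when scaled to the plate median. As the raw Ct moved by only 0.023 cycles, nearly all of this fold comes from the later crossing of the reference wells. RefSeq names 45 pseudogenes of CYCS, and the sources used here do not state whether the assay separates the gene from them.

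The ratio of CYCS to APAF1 does not depend on any reference gene, because the reference cancels between wells of 1 plate. That ratio was 1.98-fold higher in C-PC (a difference of 0.99 on the log2 scale). CASP9, the caspase that the apoptosome activates, had a log2 fold of 0.51 ± 0.39, and the ratio of CASP9 to APAF1 was 1.65-fold higher in C-PC. In these single values, the 3 transcripts of the complex stood in different proportions in C-PC and in the Control. No error can be put on either ratio. These gene pairs were chosen after the values were seen.

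Of the other proteins released from mitochondria, DIABLO, the antagonist of XIAP, crossed at cycle 23.0 in the Control and at 23.3 in C-PC. Its level was 4.45% of the reference level in the Control and 6.18% in C-PC, a log2 fold of 0.47 ± 0.39. DIABLO moved almost exactly with the plate, at -0.041 relative to the plate median, and held rank 40 of 72. Single reference genes gave -0.068 to 0.93. AIFM1, the flavoprotein that acts without caspases, had Ct values of 23.6 (Control) and 24.1 (C-PC). Its level was 3.03% of the reference level in the Control and 3.40% in C-PC. The log2 fold was 0.17 ± 0.39, smaller than the SD of the reference shifts. It ran from -0.37 to 0.62 over single reference genes, with 3 above 0 and 2 below.

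The 3 transcripts whose proteins share the intermembrane space were ordered CYCS, DIABLO, AIFM1 by fold. Neighbours in this order differed by 0.30 (CYCS against DIABLO) and 0.31 (DIABLO against AIFM1) on the log2 scale, and the ends by 0.61. No error can be put on these differences from the values deposited.

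In the DNA fragmentation family, DFFA, the inhibitor and chaperone of the nuclease, had Ct values of 22.9 (Control) and 23.5 (C-PC). Its level was 4.66% of the reference level in the Control and 5.34% in C-PC. The log2 fold was 0.20 ± 0.39, smaller than the SD of the reference shifts. AIFM1 minus DFFA was -0.029 on the log2 scale, and DFFA and AIFM1 held ranks 56 and 57 of the 72 wells. Relative to the plate median DFFA was 1.25-fold lower. CIDEB had a Ct of 24.6 in both samples and crossed earlier in C-PC by 0.064 cycles. Its level was 1.44% of the reference level in the Control and 2.53% in C-PC. The log2 fold was 0.82 ± 0.39, a level 1.76-fold higher and the highest of the 6, at rank 22 of the 72 wells. With a raw Ct shift of only 0.064 cycles, nearly all of the CIDEB fold comes from the later crossing of the reference wells.

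CIDEB lay above 0 with each of the 5 reference genes, between 0.28 and 1.27, as did every well down to rank 34 of the 72. It was 1.24-fold higher relative to the plate median. CIDEB and CYCS differed by 0.041 on the log2 scale. With GAPDH alone as reference both were past 2-fold, as were 36.1% of the 72 wells in the same direction, and with HPRT1 alone both were again past it, as were 47.2% of the wells. With ACTB, B2M or RPLP0 alone neither was past it, while 15.3%, 20.8% and 9.72% of the wells were. The ratio of CIDEB to DFFA was 1.54-fold higher in C-PC without any reference, and that of CIDEB to APAF1, the span of the 6 genes, was 2.04-fold higher.

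**Figure D2:**
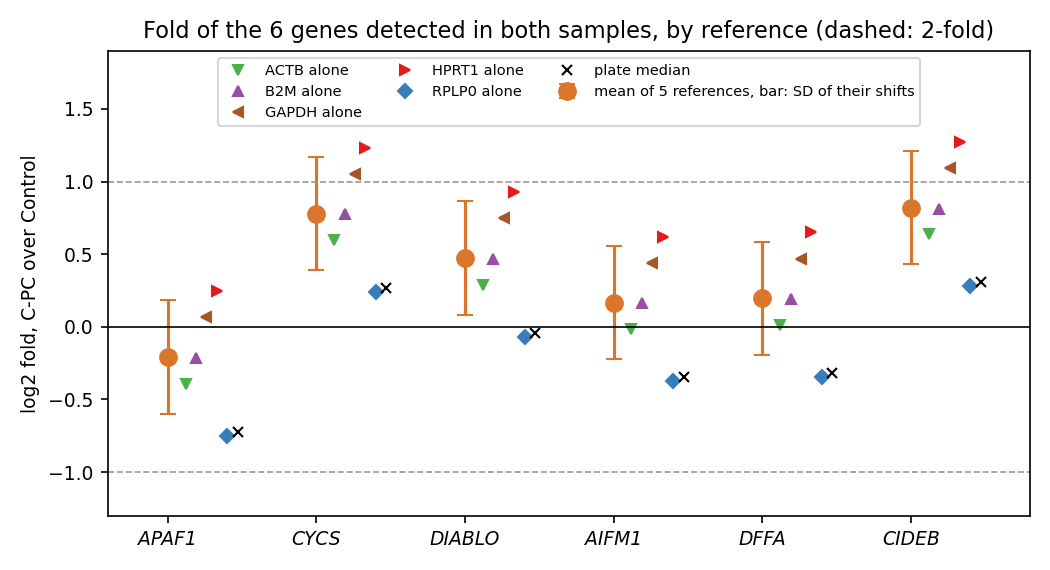
Log2 fold (C-PC over Control) of the 6 genes detected in both samples, with the mean of the 5 reference wells as a large circle (bar, SD of the 5 reference shifts), each reference gene alone and the plate median as small symbols, and dashed lines at 2-fold. Each reference moves all 6 genes by the same amount, and CYCS and CIDEB alone stay above 0 under all of these.

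CIDEA, the family member of fat cells, was at the limit of the assay. Its Ct was 33.9 in the Control and exactly 35 in C-PC, a value found in 6 C-PC target wells. The sources used here do not say what a Ct of exactly 35 stands for. If the C-PC template was no more than 35 cycles imply, CIDEA was at least 1.23-fold lower in C-PC relative to the mean of the reference wells. The bound was at least 1.76-fold relative to the plate median, between 1.02-fold and 1.80-fold with ACTB, B2M, GAPDH or RPLP0 alone, and no bound could be given with HPRT1 alone. CIDEA was therefore detected in the Control only, as were 5 of the 84 target wells in all, and under HPRT1 alone its direction was undetermined.

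The authors' deposited table lists folds of 0.862 for APAF1, 1.71 for CYCS, 1.38 for DIABLO, 1.12 for AIFM1, 1.14 for DFFA and 1.76 for CIDEB. The authors' deposited table lists 0.807 for CIDEA, which is the fold obtained when the C-PC value of 35 is used as it stands. The authors' values and the recalculated ones differed by 0.005 on the log2 scale for the 7 genes.

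**Figure D3:**
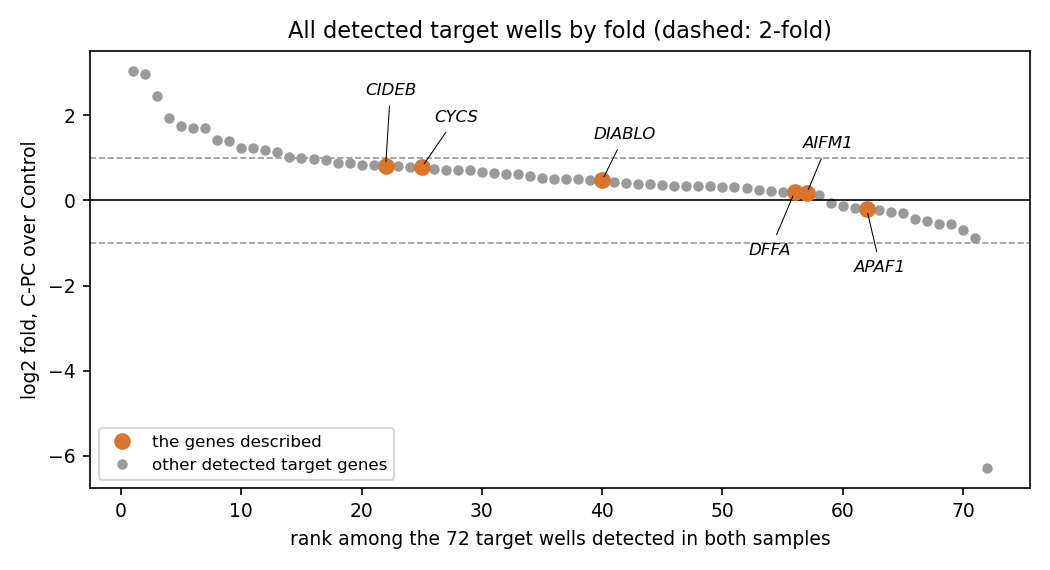
Log2 fold (C-PC over Control, mean of the 5 reference wells) of the 72 detected targets, ordered from highest to lowest, with the 6 genes as large points and dashed lines at 2-fold. The 6 genes lie at ranks 22, 25, 40, 56, 57 and 62, between the wells past 2-fold at either end.

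The target genes nearest in fold to each member, by absolute difference of log2 fold over the 2 samples, are a description only, because 2 samples give each gene a single contrast. NOD1 at -0.23 and TNFSF10 at -0.17 were nearest to APAF1. NOL3 at 0.79, which encodes an inhibitor of apoptosis found in muscle, and BCL2L2 at 0.74 were nearest to CYCS. BID at 0.49 and CFLAR at 0.44 were nearest to DIABLO, and BAG3 at 0.14 and ABL1 at 0.20 to AIFM1. ABL1 and FADD at 0.23 were nearest to DFFA, and NFKB1 at 0.82 and TNFRSF25 at 0.83 to CIDEB.

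The genes that act just before and after the 7 were read from 5 lists of 21 wells, of which 19 were detected in both samples. Among these 19, relative to the reference wells, 6 were past 2-fold upward and 1 downward, beside 20.8% and 1.39% of all 72 wells, with a median log2 fold of 0.63 beside 0.51 for all 72 wells. Relative to the plate median, 2 were higher and 2 lower, where the panel gave 9.72% higher and 6.94% lower. Relative to the reference wells, the log2 folds of the 19 ran from -6.29 (BIRC5) to 2.45 (BAX), a wider range than that of the 6 genes. Their quartiles were 0.40 and 1.08, beside 0.17 and 0.70 for the 6 genes.

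Upstream, the pore formers differed: BAX had a log2 fold of 2.45 ± 0.39 and BAK1 of 0.53 ± 0.39. BAX crossed at cycle 23.8 in the Control and at 22.1 in C-PC, a level 5.48-fold higher relative to the reference wells and 3.84-fold higher relative to the plate median. BAX makes the opening through which cytochrome c and DIABLO pass, and its fold exceeded those of CYCS and DIABLO under every reference, since a reference moves all wells alike. Of 5 BH3-only genes, whose proteins trigger the pore formers or block their guards, 2 were at least 2-fold higher and 0 lower. Among all 72 detected wells, 20.8% were higher and 1.39% lower. BIK had a log2 fold of 1.14, and HRK 1.70 at late Ct values of 34.5 and 33.6. BCL2L11 (0.62), BID (0.49) and BAD (-0.48) were between. Of the 6 guards that hold the pore formers in check, 4 were detected in both samples. Of these 4, 1 was at least 2-fold higher, BCL2L1 at 1.18, beside the panel share of 20.8%. BCL2 itself stood at -0.54 and MCL1 at 0.25. Relative to the plate median, HRK was the 1 BH3-only gene past 2-fold, and of the guards 0 were higher and 1, BCL2, was 2.08-fold lower. By that measure the panel gave 9.72% higher and 6.94% lower.

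Downstream of the apoptosome, neither of the 2 caspases reported was past 2-fold relative to the reference wells, with CASP6 at 0.89 and CASP9 at 0.51. Without RPLP0 among the reference wells, 1 (CASP6) was past it. Of the 6 BIRC family genes, 2 were at least 2-fold higher (XIAP and BIRC3), 1 lower and 3 between, where the panel gave 20.8% higher. The 2 became 0 relative to the plate median, with RPLP0 alone, with no reference or at 3-fold. They became 1 with ACTB alone, without GAPDH or without HPRT1 among the reference wells, or with a 1.9-fold rise per cycle. The count rose to 3 with GAPDH alone, with the median Ct of the reference wells, without ACTB or without RPLP0. It rose to 4 with HPRT1 alone or at 1.5-fold. XIAP, the caspase inhibitor that DIABLO displaces, had a log2 fold of 1.02 ± 0.39 and lay just past 2-fold. The ratio of XIAP to DIABLO was 1.46-fold higher in C-PC, and that of BIRC2, another partner of DIABLO, to DIABLO was 1.12-fold higher. BIRC3 stood at 1.22. BIRC5 (survivin), a protein of dividing cells, was the 1 well at least 2-fold lower among the 72 detected in both samples, with Ct values of 26.3 (Control) and 33.3 (C-PC) and a log2 fold of -6.29 ± 0.39.

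**Figure D4:**
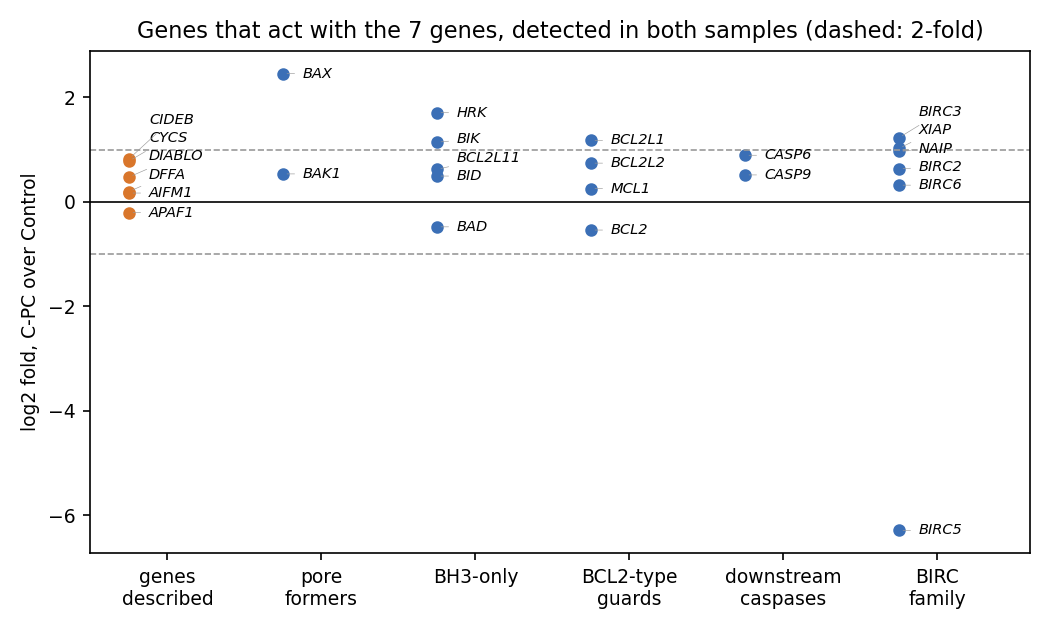
Log2 fold (C-PC over Control, mean of the 5 reference wells) of the genes detected in both samples, 1 point per gene, for the genes described and 5 lists of genes that act with them, with dashed lines at 2-fold. The 6 genes described lie between -0.21 and 0.82, while BAX at 2.45 and BIRC5 at -6.29 mark the ends of the lists.

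Each sample is bulk RNA of a whole culture, so fewer cells with a transcript and less of it per cell cannot be told apart. Levels of different genes were not compared with each other, because each Ct also depends on the assay of its gene.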

How the data were processed

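Expression was measured by SYBR Green quantitative PCR on the array PAHS-012Z in 1 Control and 1 C-PC sample of LNCaP cells. Per the labels' protocols, cDNA was made from 1000 ng of total RNA and amplified for 40 cycles. The authors deposited 3 tables of 89 wells. The first holds a Ct score per well and sample, not normalized, per the file headers. The second holds the fold change, a ratio of C-PC over Control that, per the file headers, the authors scaled to housekeeping genes. The third holds a deposited ratio per sample that matched 2 to the power of minus the Ct difference from the mean of the reference wells in 82 of 84 target wells (tolerance 0.01, log2). The sources used here do not state how the runs were combined.

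Log2 folds were recalculated from Ct against the mean of H01 to H05. Detection meant a Ct below 35, and wells were counted from 2-fold on. Where 1 sample was detected, 35 stood in for the other. Alternatives were other references, Ct limits, thresholds, the authors' values and a 1.9-fold rise per cycle. PCR cycles carry no read depth, and the 1 sample per group limits precision. All 89 layout symbols were found in RefSeq. Promoter letters were searched on both strands. The genes named are the 7 members, the reference genes, all genes of the pathway lists that bear on them and the 2 nearest wells by fold to each detected member. Other genes of the pathway lists are not reported here. The members and lists were chosen with earlier results of these data known. The calculation was tested on simulated data. Python 3.11.15 and matplotlib 3.10.9 were used.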

Additional observations from a re-analysis of the deposited data

How the results depend on the processing

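The choice of reference decided the sign of several of the 6 folds and left their order untouched. With HPRT1 alone the log2 folds were 0.25 (APAF1), 1.23 (CYCS), 0.93 (DIABLO), 0.62 (AIFM1), 0.65 (DFFA) and 1.27 (CIDEB), with a median of 0.79. With RPLP0 alone they were -0.75, 0.24, -0.068, -0.37, -0.35 and 0.28 in that order of genes, with a median of -0.21. With the plate median they were -0.72, 0.26, -0.041, -0.35, -0.32 and 0.31, with a median of -0.18, and with no reference -0.96, 0.023, -0.28, -0.59, -0.56 and 0.064, with a median of -0.42. Members past 2-fold upward, 0 against the reference mean, came to 2 with GAPDH alone, 2 with HPRT1 alone and 2 with the median Ct of the 5 reference wells, which is GAPDH in both samples by its place in the order. A 1.5-fold threshold also gave 2. Leaving out 1 reference well moved APAF1 between -0.32 and -0.07 and CIDEB between 0.71 and 0.95, and leaving out 1 member moved the median between 0.20 and 0.47. Pathway wells at least 2-fold higher, 6 at first, numbered 3 with ACTB alone, 11 with HPRT1, 2 with RPLP0, 2 with the plate median, 1 without a reference, and 11 at 1.5-fold and 2 at 3-fold. Those lower, 1 at first, numbered 3 with RPLP0, 2 with the plate median, 3 with no reference and 0 with a Ct limit of 32 (which leaves BIRC5 out). Of all target wells, 15 higher became 26 with GAPDH or the median Ct, 34 with HPRT1, 7 with RPLP0 or the plate median, 4 with no reference, 33 at 1.5-fold and 7 at 3-fold. The 1 lower became 2 with ACTB, 6 with RPLP0, 5 with the plate median, 9 with no reference, 0, 2 and 3 with Ct limits of 32, 37 and none, and 3 at 1.5-fold. The authors' folds and ratios and a 1.9-fold rise per cycle moved no count of members, of all pathway wells together or of all target wells by over 1.5 times and no fold of the 6 genes by over the SD of the reference shifts. No paired analysis was possible because Control and C-PC are 1 sample apiece. Leaving out runs was not possible with 1 value per well. Late Ct values limit CIDEA, HRK and BIRC5.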
